A study of Mus musculus with 22 samples.

Results

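The regions described here are ac4C peaks of protein-coding genes that span at most 1000 bases and were called in kidneys of both db/db and db/m mice. They were selected on the authors' peak calls, as the rows of the db/db list that share 1 base or more with a db/m row on the same chromosome and strand, and the db/db row stands for the pair. The rule found 1927 of the 9857 peaks in the deposited table (19.5%), in 1635 genes and at 1887 distinct positions. They are called shared short peaks here. Their excess of IP over RNA-seq reads chose them, so it is given as a description with no test. Being called in both genotypes touches the genotype comparison too, so nothing is read from how often these peaks differed.

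The study asked how NAT10 and ac4C relate to the senescence of kidney tubule cells in diabetes, and this series holds kidneys of 6 db/db and 5 db/m mice. db/db mice are homozygous for a mutation of the leptin receptor gene, in every tissue, and become obese and diabetic, while db/m mice are heterozygous and nondiabetic. Male animals were used per the study's methods, the labels name no treatment, and age at collection and strain background are not given in the sources used here. Each animal gave one library of RNA pulled down with an ac4C antibody (IP) and one made without it (RNA-seq), 22 libraries in all, from mRNA enriched with oligo d(T) beads and fragmented.

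N4-acetylcytidine (ac4C) is a cytidine that carries an acetyl group on its base. NAT10 is the enzyme known to write it on ribosomal and transfer RNA, and antibody methods have reported it on mRNA, where it has been linked to stability and translation. A peak is a stretch of transcript that holds more reads in IP than in RNA-seq libraries.

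The position in the gene was not used by the rule. Of the 1489 shared short peaks whose gene has an entry in the RefSeq promoter table (GRCm38.p6), 130 covered the first 50 bases of a listed transcript start (8.73%), and in 58 of these the 5′ edge of the peak was the start itself. The sequences below run from 30 bases before the start to 30 bases from it, 5′ to 3′ on the strand of the gene, with the bases inside the peak in capitals. Shown are the 4 peaks with the highest IP level among those that begin exactly at the start (Rab5a, Slc22a6, Lgr4 and Arpp19), and the other peaks with an edge within 10 bases of a start whose IP reads differed between the genotypes (Mlec and Hsph1).

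Rab5a, chr17:53479204-53479263, plus strand: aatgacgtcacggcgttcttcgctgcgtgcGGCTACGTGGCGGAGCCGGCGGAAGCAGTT
Slc22a6, chr19:8617966-8618025, plus strand: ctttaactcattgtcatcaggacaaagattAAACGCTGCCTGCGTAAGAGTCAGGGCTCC
Lgr4, chr2:109917617-109917676, plus strand: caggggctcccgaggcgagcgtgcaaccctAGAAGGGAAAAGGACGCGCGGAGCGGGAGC
Arpp19, chr9:75037584-75037643, plus strand: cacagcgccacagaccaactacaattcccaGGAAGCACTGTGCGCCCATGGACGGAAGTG
Mlec, chr5:115158147-115158206, minus strand: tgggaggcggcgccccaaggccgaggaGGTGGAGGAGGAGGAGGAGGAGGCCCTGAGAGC
Hsph1, chr5:149636307-149636366, minus strand: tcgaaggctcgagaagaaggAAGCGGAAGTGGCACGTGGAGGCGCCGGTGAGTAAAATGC

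The first 50 bases after these 130 starts had a median GC content of 70%, against 56% over the 32851 entries of the promoter table. Those entries include genes without a peak and were not matched for expression. The repeat CNNCNNCNNCNN, where N is any base, has been linked to ac4C in mRNA. It was searched on the transcript strand only, and the first 50 bases held it in 28 of the 130 peaks (21.5%) and in 21.1% of all entries. The median fold enrichment given by the authors' peak caller was 7.78 for the 130 and 4.69 for the other shared short peaks. Their median log2 fold change in IP reads, db/db against db/m, was -0.14. A start near the 5′ end of the gene was not particular to shared short peaks. Of those matched to a gene, 11.2% began within 100 bases of its 5′ end. The share was 8.71% in peaks of the same length limit of the db/db list only, and 9.70% in those of the db/m list only.

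The peaks shown differed in how IP compared with RNA-seq. Levels are given as CPM, the read count scaled to the sum of that library's counts over all peaks after TMM normalization. This scaling takes out the average excess of IP reads in peaks. A lower CPM in IP than in RNA-seq therefore means less IP than in the average peak. The peak of Rab5a, which encodes a GTPase of early endosomes, is 329 bases long and had a mean of 214 CPM in IP and 46.4 CPM in RNA-seq. The peak of Lgr4, which encodes a receptor for R-spondins, is 480 bases long, with 186 CPM in IP and 25.5 CPM in RNA-seq. A single db/m mouse, animal 2, had 738 CPM of IP reads of Lgr4, and the other db/m mice had 93.6 to 132 CPM. The peak of Slc22a6, the organic anion transporter OAT1 of proximal tubules, had a lower CPM in IP (201) than in RNA-seq (458). So did that of Arpp19, which encodes a phosphatase inhibitor (168 and 278 CPM). The authors' peak caller gave these peaks of Slc22a6 and Arpp19 fold enrichments of 2.47 and 4.57.

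In most pairs the calls of the 2 genotypes covered the same bases. The median shared short peak was 210 bases long (quartiles 151 and 358), and its db/m partner 240. The shared bases made up a median of 100% of the db/db row and 96.6% of the db/m row. Both bounds were the same in 464 pairs (24.1%), the db/db row lay wholly inside the db/m row in 1207 (62.6%), and at least 50% of both rows was shared in 1549 (80.4%). In 147 pairs the db/m row was longer than 1000 bases, 55 db/db rows had several partners, and 2 partners carried the name of another gene.

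**Figure D1:**
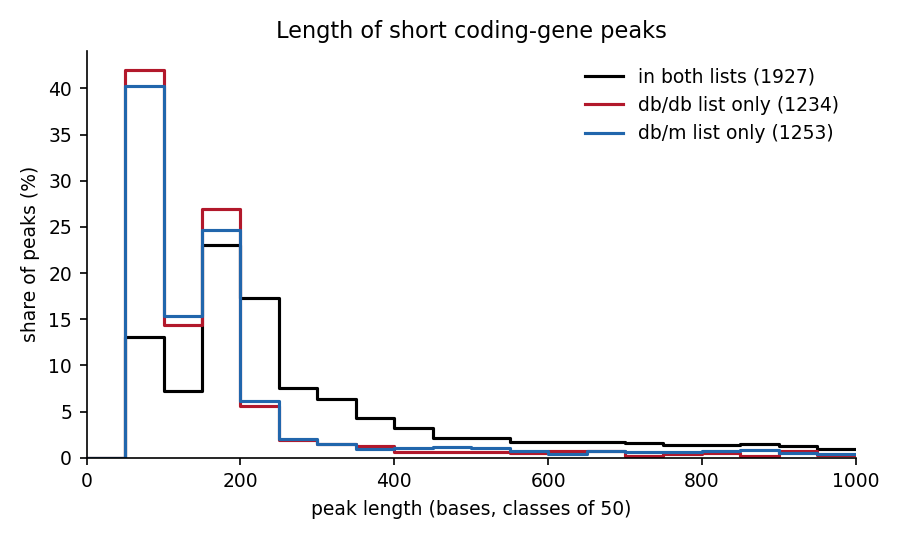
Share of peaks (%) by peak length in bases, for short coding-gene peaks in both lists (1927), in the db/db list only (1234) and in the db/m list only (1253). Peaks found in both lists had a median length of 210 bases, and those of a single list a median of 121 bases in either genotype.

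At the edge of the rule, the longest shared short peaks were those of U2af1 (1000 bases), Coq9 (999) and Gm21738 (991). The shortest peaks left out by length were those of Nckap1 (1002), Ehmt2 (1003) and Hypk (1004). The smallest overlaps that counted were of 1 base, in Pikfyve, Plekho1 and Zbtb10, and the narrowest gaps that did not were 28 bases in Flt1 and Gm17190 and 29 bases in Ncl. The overlaps with the most shared bases were those of Coq9 and Gm21738. Coq9, which serves coenzyme Q synthesis, stood at a log2 fold change of -0.53 in IP reads and Gm21738 at 1.28, while Pikfyve, a lipid kinase gene, stood at -0.44 and Plekho1 at 0.97, and none of the 4 passed the test described below. With 1 animal left out, Gm21738 ranged from 1.01 without db/m animal 2 to 2.19 without db/m animal 4, and Plekho1 from 0.03 without db/db animal 6 to 2.13 without db/m animal 2.

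Single-list peaks of the same length limit were chosen by the same calls, so they are set beside the shared short peaks as a description. The median over peaks of the mean IP count was 281 reads in shared short peaks, 3.45 in peaks of the db/db list only and 7.55 in those of the db/m list only. An FDR over 0.05 from the peak caller stood beside 75 shared short peaks (3.89%), 41.9% of the db/db-only peaks and 34.3% of the db/m-only peaks. The median deposited fold enrichment ran the other way, at 4.85, 6.49 and 5.93. Fewer than 10 IP reads on average were counted in 196 shared short peaks (10.2%) and in 61.6% and 53.2% of the single-list peaks.

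The deposited fold enrichment and the ratio of levels could lie far apart. With 0.5 CPM added to both, the median log2 of IP over RNA-seq level over the shared short peaks was 0.29 to 0.34 in the 6 db/db mice and 0.27 to 0.34 in the 5 db/m mice. On the same scale the ratio of mean levels was at least 2 in 474 peaks (24.6%) and under 1 in 585 (30.4%). Both levels are scaled to a library's own counts in peaks, so a ratio under 1 does not mean depletion in IP. The highest deposited value, 1310, belonged to a peak of Pth1r, the parathyroid hormone receptor gene, whose mean levels were 479 CPM in IP and 313 CPM in RNA-seq. In the 8 peaks with a deposited value over 100, the ratio of mean levels lay between 1.53 and 18.6.

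Counts summed over all peaks ranged from 7577171 to 10293757 in IP libraries and from 3151035 to 3352535 in RNA-seq libraries. Of these sums, 16.1% to 18.2% lay in shared short peaks. Overlapping peaks, such as those of a pair, hold the same reads, so a read can enter these sums more than once. Marker levels were summed over all peaks of the genes, so reads of overlapping peaks are repeated here too. The proximal tubule markers with a peak were Lrp2, Slc22a6, Slc34a1 and Slc5a2 (4 of 6). They summed to 1587 to 3181 CPM of RNA-seq reads in db/db mice and to 3164 to 3390 CPM in db/m mice. The 3181 CPM were those of db/db animal 6, and the other db/db mice had at most 2196 CPM. Among these markers are 3 shared short peaks, and 2 of them were lower in RNA-seq reads in the edgeR fit described below. That of Slc5a2 stood at a log2 fold change of -0.16 and did not pass. The endothelial markers Emcn and Kdr summed to 37.9 to 82.5 CPM in db/db mice, with animal 6 highest and the others at most 72.9 CPM, with medians of 65.8 and 83.4 CPM in db/db and db/m mice. The podocyte markers had medians of 121 and 86.0 CPM and the distal and collecting duct markers of 607 and 499 CPM in db/db and db/m mice. In the same order, the loop of Henle marker Slc12a1 had medians of 600 and 514 CPM. The immune marker C1qa had medians of 6.6 and 7.2 CPM and highest values of 36.0 and 15.3 CPM. Markers of fat, lung and adrenal gland reached at most 0.316, 1.27 and 0.602 CPM. In whole kidney, fewer cells of a type and less RNA per cell cannot be told apart, and the part of these marker differences in the results was not tested.

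Each genotype comparison was fitted with edgeR's quasi-likelihood method over all 9857 peaks, p-values were adjusted by Benjamini-Hochberg over all of them, and a peak was called at an adjusted p under 0.05 with an absolute log2 fold change over 1. In IP reads, 64 shared short peaks in 52 genes were called (3.32%, against 3.32% of all peaks). Of these, 36 were higher in db/db mice (1.87%, against 1.59% of all peaks) and 28 were lower (1.45%, against 1.72%). The 36 include 9 nearly identical rows of Ugt1a6b, so the calls stand for 55 distinct regions, 27 higher and 28 lower. Without db/db animal 6 there were 79 calls and without db/db animal 5 there were 50. Over those 79 peaks, animal 6 stood nearer to the db/m mice at the median than any other db/db mouse did. The 79 were chosen by the other animals, so this is a description.

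At an adjusted p under 0.05 alone, IP reads differed in 124 shared short peaks (6.43%, against 6.45% of all peaks), 65 higher (3.37%, against 3.07%) and 59 lower (3.06%, against 3.38%). The 124 stand for 112 distinct regions, 54 higher and 58 lower, so the larger number of rises does not hold by region. The IP values of the 6 db/db and the 5 db/m mice did not overlap in 113 shared short peaks (5.86%, against 5.77% of all peaks), and 48 of the 64 called peaks were among them. The 113 stand for 101 distinct regions. The median log2 fold change in IP reads was 0.01 over shared short peaks and 0.00 over all peaks.

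Rises and falls were ranked with each gene represented by its peak of highest IP level, among called peaks without overlap. The largest rise was that of Grem1, which encodes gremlin 1, a secreted antagonist of bone morphogenetic proteins. Its peak lies on the minus strand of chromosome 2 from 113748372 to 113748551, wholly past the 3′ end of the gene's RefSeq entry (GRCm38.p6). In IP the lowest db/db mouse had 8.04, the median 11.9 and the highest 19.2 CPM, and the 5 db/m mice had 0, 1.80, 3.29, 3.16 and 0.223 CPM. Every db/db value lay above every db/m value, and the rise was 2.93 ± 0.63 (log2 fold change ± SE, edgeR quasi-likelihood adjusted p = 0.0070). Within this peak, and not over the whole gene, RNA-seq held 47 reads over the db/db mice and 1 read over the db/m mice. The ratio was 39.1 after scaling to depth, with an exact 95% interval of 6.69 to 1577 that covers counting error only.

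Apoe and Pck1 combined large rises with high levels. The peak of Apoe, the apolipoprotein E gene, lies on the minus strand of chromosome 7 from 19696647 to 19697260. Its IP level had a lowest value of 651, a median of 1098 and a highest value of 2474 CPM in db/db mice, against 336, 196, 264, 323 and 185 CPM in db/m mice. The groups did not overlap, and the rise was 2.33 ± 0.28 (edgeR quasi-likelihood adjusted p = 2.8e-05). Pck1 encodes the cytosolic phosphoenolpyruvate carboxykinase of gluconeogenesis, and its peak lies on the plus strand of chromosome 2 from 173158287 to 173158586. Its IP level had a lowest value of 2755, a median of 5085 and a highest value of 8416 CPM in db/db mice, against 1767, 901, 1807, 1324 and 1666 CPM in db/m mice. Here too the groups lay apart, with db/db animal 6 the lowest of its group, and the rise was 1.83 ± 0.28 (edgeR quasi-likelihood adjusted p = 0.00036).

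Col27a1, which encodes a fibrillar collagen, rose by 2.20 ± 0.38 (edgeR quasi-likelihood adjusted p = 0.0011). Its IP level was 88.4, 207 and 543 CPM at the lowest, the median and the highest db/db mouse, and 52.3, 25.7, 55.1, 66.8 and 76.6 CPM in db/m mice. The lowest db/db mouse was animal 6. Ugt1a6b belongs to a family of glucuronosyltransferases that share their last exons, so its reads may come from neighbouring members. At the row from 88218250 to 88218519 on chromosome 1 it had 578, 782 and 988 CPM at the lowest, the median and the highest db/db mouse, and 311, 290, 313, 306 and 276 CPM in db/m mice, a rise of 1.38 without overlap.

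The other rises that the naming rule took were those of the neurofilament gene Nefl (1.38), Net1 (1.26), the mitochondrial carrier gene Slc25a34 (1.24), Gpd1 (1.23) and Rusc2 (1.23). Gpd1 encodes the cytosolic glycerol-3-phosphate dehydrogenase and has a peak on the opposite strand, so the gene behind its reads is uncertain. Its IP level was 181 to 385 CPM in db/db mice and 108 to 140 CPM in db/m mice. Gldc, which encodes a subunit of the glycine cleavage system, was called with a larger rise (1.55), but its highest db/m mouse (90.4 CPM) lay above its lowest db/db mouse (74.9 CPM).

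The largest fall was that of Acy3, which encodes an aminoacylase that acts on mercapturic acids. Its peak lies on the plus strand of chromosome 19 from 3986779 to 3986985. The IP level was 38.2, 57.7 and 109 CPM at the lowest, the median and the highest db/db mouse, and 367, 346, 444, 386 and 401 CPM in db/m mice. All db/m values lay above all db/db values, of which animal 6 was the highest. The log2 fold change was -2.65 ± 0.22 (edgeR quasi-likelihood adjusted p = 5.1e-07).

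Mpv17l, Ldhd and Acsm2 also fell without overlap. Mpv17l encodes a peroxisomal and mitochondrial membrane protein, and had 122, 152 and 223 CPM at the lowest, the median and the highest db/db mouse against 727, 614, 880, 737 and 782 CPM in db/m mice (log2 fold change -2.18 ± 0.16). Ldhd, the gene of D-lactate dehydrogenase, had 51.2, 58.3 and 73.7 CPM in the same order against 245, 210, 224, 264 and 225 CPM (-1.96 ± 0.14). Acsm2, a medium-chain acyl-CoA synthetase gene, had 994, 2031 and 2818 CPM against 6876, 5591, 6985, 8449 and 6589 CPM (-1.83 ± 0.21, edgeR quasi-likelihood adjusted p = 1.6e-05). In Mpv17l and Acsm2 the highest db/db mouse was again animal 6.

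The remaining falls that the naming rule took were those of the GTPase gene Rhov (-1.92), Hsd17b11 (-1.66), Cmtm6 (-1.58), the cilium gene Evc (-1.51), the O-glycan enzyme gene Gcnt1 (-1.48) and Smarca2 (-1.43). A weaker peak of Trabd2b fell by more than these (-2.07, without overlap) but is not the gene's highest, and is described with the genes that have several peaks. Smarca2 encodes an ATPase of SWI/SNF chromatin remodelling, and had 87.5 to 153 CPM in db/db mice and 322 to 354 CPM in db/m mice. Hsd17b11, a steroid dehydrogenase gene, had 1.79 to 6.12 CPM in db/db mice and 8.13 to 16.8 CPM in db/m mice. Its call was lost without db/m animal 5 (edgeR quasi-likelihood adjusted p = 0.073).

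**Figure D2:**
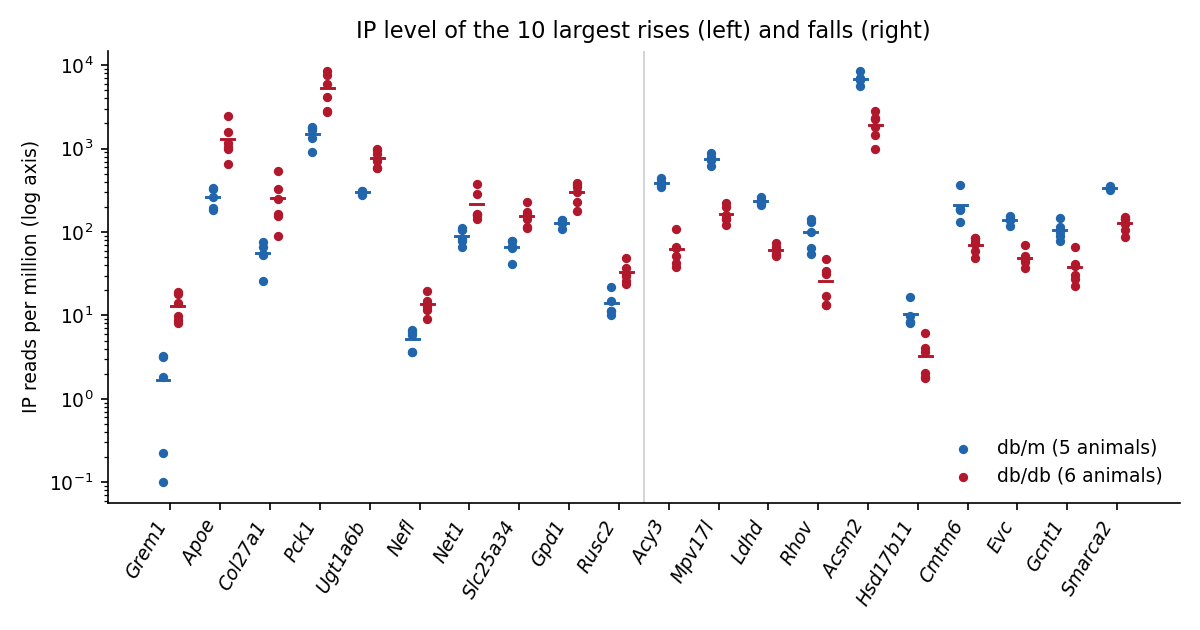
IP level (CPM, logarithmic axis) of the 10 largest rises and the 10 largest falls among called shared short peaks whose genotypes do not overlap, where each gene enters only with its peak of highest IP level. Points are animals, bars are group means, and the db/m mouse with no read of Grem1 is drawn at 0.1. Grem1 had 8.04 to 19.2 CPM in db/db mice, and Pck1 and Acsm2 lie highest.

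With 1 peak per gene, the 6 shared short peaks with the highest IP level were those of Hsp90ab1, Acsm2, Pck1, Hmgb1, Cenpb and Rplp1. Per kilobase of peak, the mean IP level was 12675 CPM in Acsm2, 11918 in Pck1, 6865 in Hsp90ab1, 4083 in Hmgb1, 2908 in Cenpb and 2888 in Rplp1. Hsp90ab1 encodes a cytosolic HSP90 chaperone. Its IP level was 3662, 3834 and 4200 CPM at the lowest, the median and the highest db/db mouse, and 6328, 5597, 7080, 7150 and 6072 CPM in db/m mice. The groups did not overlap, and the fall of 0.74 on the log2 scale (edgeR quasi-likelihood adjusted p = 0.00025) was under the fold limit of a call. The chromatin protein gene Hmgb1 (0.16), the centromere protein gene Cenpb (-0.35) and the ribosomal stalk gene Rplp1 (0.39) did not pass, although the values of Cenpb did not overlap.

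The gene lists were scored at an adjusted p under 0.05 in IP reads, and their medians stand beside 0.01 for all shared short peaks. At this limit 6.43% of shared short peaks and 6.45% of all peaks passed. Only genes with a shared short peak enter, which are a minority of each list. Of 10 peaks in 9 genes of proximal tubule transport, 1 was higher and 2 were lower, with a median of -0.17. The phosphate transporter gene Slc34a1 fell by 0.98 on the log2 scale, with 34.1 to 104 CPM in db/db mice and 82.4 to 156 CPM in db/m mice, and the db/db value within the db/m range was that of animal 6. Slc22a6, whose start is shown above, fell by 0.63, with 119 to 198 CPM against 218 to 271 CPM and no overlap. Slc5a1, the gene of the sodium-glucose transporter SGLT1, rose by 0.89, with 57.0 to 108 CPM against 26.8 to 59.5 CPM. The adjusted p of Slc34a1 was 0.05 or more with any one of db/db animals 1 to 5 or db/m animals 2 or 5 left out (up to 0.073), and that of Slc5a1 without db/db animals 1 or 5 and without db/m animals 4 or 5 (up to 0.065). Slc5a2, the gene of SGLT2 (-0.20), Slc3a2 (0.38) and the bicarbonate transporter gene Slc4a4 (0.52) did not pass.

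None of 10 peaks in 7 genes of distal tubule transport passed (median 0.32), the sodium channel gene Scnn1a (0.25) and the kinase genes Wnk1 (-0.21) and Wnk4 (0.38) among them. Of the 51 genes of the lipid list, 17 had a peak of any kind and only 3 had a shared short peak. These 3 peaks passed, 2 higher and 1 lower (median 0.84). Apoe and Acsm2 are described above, and Acadvl, the gene of the very-long-chain acyl-CoA dehydrogenase, rose by 0.84 and has a peak on the opposite strand. Of 5 peaks of glucose and citrate metabolism (median 0.25), Pck1 was higher and 4 did not pass, with Gpi1 at 0.25 and Hk1 at 0.42. Of 7 peaks of xenobiotic and steroid metabolism (median -0.12), Hsd17b11 and Ugt3a2 (-1.05) were lower and 5 did not pass, with Hao2 at 0.21, Aldh8a1 at -0.33, Dao at -0.12 and Aldh2 at 0.50. The call of Ugt3a2 was lost without db/m animals 1 or 4, without db/db animal 3 and without TMM.

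Of 9 peaks of matrix genes (median 0.34), that of Grem1 was higher and 3 were lower. The 3 all lie in Timp3, which encodes an inhibitor of metalloproteinases, at -0.71, -0.88 and -0.63 from the 5′ to the 3′ side. Each of the 3 lost its adjusted p under 0.05 when some animals were left out, with highest values of 0.095, 0.069 and 0.13, the last of them with any single db/db animal left out or without db/m animals 1, 3, 4 or 5. The first did so without db/db animals 1, 2 or 3 and without db/m animals 1, 3 or 5, and the second without db/db animal 4 and without db/m animals 3 or 4. Col4a2 (0.44) and Hspg2 (0.34), genes of basement membrane proteins, did not pass. Of 11 peaks of immediate early and stress genes (median 0.52), 2 were higher (Gadd45a 1.08 and Ier5 1.11) and 3 were lower, both of Hsp90ab1 and that of Hsp90b1 (-0.51, with an adjusted p of up to 0.13 and 0.05 or more with any one of db/db animals 1 to 5 or db/m animals 1, 3, 4 or 5 left out), and the chaperone gene Hspa5 (-0.14) did not pass. The groups overlapped in Gadd45a and Ier5. The call of Gadd45a was lost with any one of db/m animals 2 to 5 left out and without db/db animals 4 or 5, and that of Ier5 without db/m animals 1, 4 or 5 and without db/db animal 5.

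Of 13 peaks of ribosomal protein genes, Rps2 was higher and 12 did not pass (median 0.29), Rpl41 at 0.13 and Rps9 at 0.29 among them. Rps2 had 844 to 1170 CPM in db/db mice and 471 to 774 CPM in db/m mice, a rise of 0.62 (edgeR quasi-likelihood adjusted p = 0.012). Of 11 peaks of translation and nucleolar genes (median 0.03), the ribosome assembly gene Rrs1 was lower (-0.54, lost with any single db/db animal left out, without db/m animals 2, 4 or 5, with the replicate block and without TMM, with an adjusted p of up to 0.14) and 10 did not pass, with Ncl at 0.19, Ubtf at 0.03, Eef2 at 0.13 and Eif3a at -0.18. Of 13 peaks of the respiratory chain (median 0.17), mt-Nd2 was lower and 12 did not pass, with Atp5b at -0.07, Cox5b at 0.26, Ndufb10 at 0.26 and Ndufb7 at 0.17. Of 19 peaks of chromatin genes (median -0.14), 2 were lower, in Smarca2 and in Chd3 (-1.10), and 17 did not pass, Chd4 at 0.19 among them. The call of Chd3 was lost without db/db animal 5.

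The clock genes Bhlhe40 (0.56) and Per1 (0.87, median of the list 0.71) and the class I histocompatibility genes H2-D1 (0.22) and H2-K1 (0.57, median of the immune list 0.39) did not pass. Of 10 peaks in 6 genes of the senescence and injury list (median 0.01), 1 was higher, in the cell cycle inhibitor gene Cdkn1c (0.84, edgeR quasi-likelihood adjusted p = 0.029). Its groups overlapped, it has a peak on the opposite strand, and the adjusted p was 0.05 or more without db/db animals 2, 3 or 4 and without db/m animals 3, 4 or 5 (up to 0.081). The genes of the growth factor binding proteins Igfbp4 (-0.31), Igfbp7 (0.14) and Igfbp5 (-0.34) did not pass. Neither Nat10 nor Pappa has a shared short peak. The Nat10 peak is in the db/m list only, and both Pappa peaks are in the db/db list only. Being in a single list does not by itself mean that reads differed between the genotypes, and the reads of these peaks are not given here.

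In RNA-seq reads, 69 shared short peaks were called (3.58%, against 3.95% of all peaks), 39 higher (2.02%, against 1.98%) and 30 lower (1.56%, against 1.97%). The 69 stand for 59 distinct regions, 29 higher and 30 lower. At an adjusted p under 0.05 alone, 217 differed (11.3%, against 11.3% of all peaks), 117 higher (6.07%, against 5.34%) and 100 lower (5.19%, against 5.93%). These stand for 203 distinct regions, 106 higher and 97 lower. The values did not overlap in 142 (7.37%, against 7.89%), at 130 distinct regions.

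The 64 peaks called in IP all had the same sign in RNA-seq reads of the same animals, 58 of them at an RNA-seq adjusted p under 0.05 and 46 as calls. The median absolute log2 fold change over the 64 was 1.24 in IP and 1.28 in RNA-seq reads. Every nearly identical row of Ugt1a6b enters these counts and medians, and the 64 stand for 55 distinct regions. The same counts are not given here for all peaks called in IP, so nothing particular to shared short peaks is read from them. The RNA-seq value was 2.30 in Apoe, 2.20 in Col27a1 and 1.85 in Pck1, and -2.63 in Acy3, -2.32 in Mpv17l, -2.01 in Acsm2 and -1.95 in Ldhd. In Apoe the RNA-seq level was 645, 1019 and 2579 CPM at the lowest, the median and the highest db/db mouse, and 348, 190, 246, 307 and 186 CPM in db/m mice. As in IP, these values did not overlap.

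**Figure D3:**
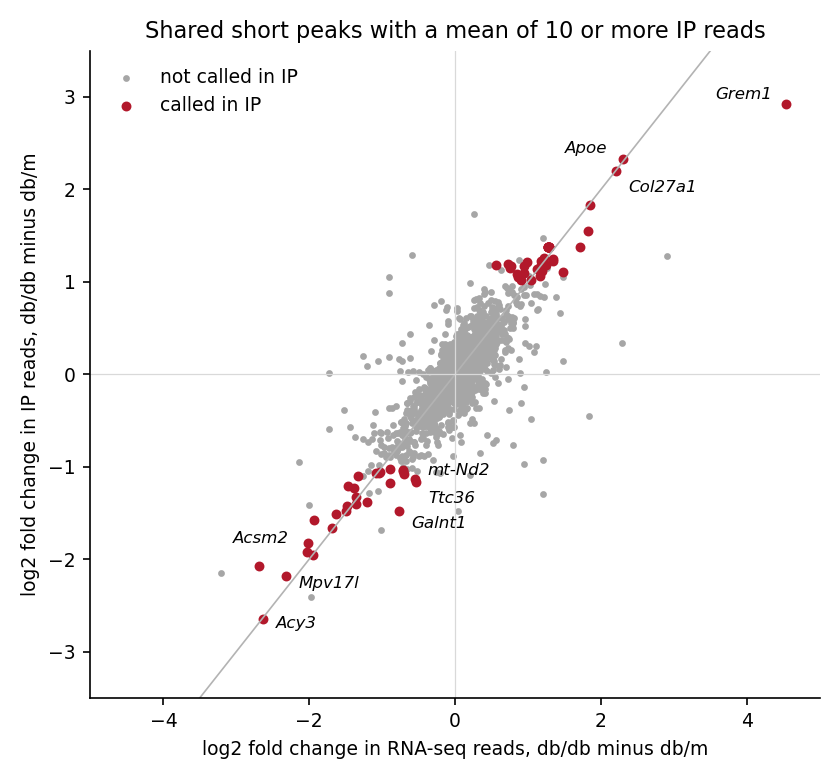
log2 fold change (db/db minus db/m) in IP reads (vertical axis) against RNA-seq reads (horizontal axis), for shared short peaks with a mean of 10 or more IP reads. Each point is a peak, red points are called in IP, and the grey diagonal marks equal change. Grem1 lies to the right of the diagonal (2.93 in IP and 4.54 in RNA-seq, where db/m mice had 1 read), and Ttc36, mt-Nd2 and Galnt1 lie below it.

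In 6 of the 64 peaks, named here because of this result, the RNA-seq adjusted p was 0.05 or more. They were the falls of Galnt1 (-1.48 in IP and -0.77 in RNA-seq), Ubxn8 (-1.17 and -0.89), Ttc36 (-1.16 and -0.54), mt-Nd2 (-1.14 and -0.55) and Hsph1 (-1.04 and -0.71), and the rise of Gadd45a (1.08 and 0.85). Hsph1 encodes a large heat-shock protein, and its peak begins 10 bases before the start shown above. Its IP level was 13.9 to 26.7 CPM in db/db mice and 17.4, 67.2, 42.3, 55.5 and 25.4 CPM in db/m mice, and the groups overlapped. The call of Hsph1 (edgeR quasi-likelihood adjusted p = 0.048) was lost whichever db/db animal was left out, and without db/m animal 2, 3 or 4, and that of Ubxn8 without each of db/m animals 1, 3, 4 and 5 and of db/db animals 1, 2 and 5.

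The change of IP reads beyond that of RNA-seq reads was tested within animals. By edgeR's quasi-likelihood method, 0 shared short peaks were called (against 0.0203% of all peaks), and the smallest adjusted p was 0.099. At an unadjusted p under 0.05 there were 85 (4.41%, against 6.76% of all peaks). DESeq2 called 0, with 66 at an unadjusted p under 0.05, and limma on the log2 ratio of each animal called 0, with 74. The edgeR fit gave no weight to the spread of a single peak, so its p-values are too small where animals vary widely. The median relative log2 fold change was 0.02 over shared short peaks, with quartiles of -0.14 and 0.16.

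The smallest relative p-values belonged to peaks of Ttc36, mt-Nd2, Rgp1, Timp3 and Acsm2, which were named after their values were seen. Ttc36, which encodes a tetratricopeptide repeat protein, had a log2 IP over RNA-seq level of 0.09 to 0.48 in db/db mice with a median of 0.35, and of 0.71, 1.85, 0.67, 0.57 and 0.72 in db/m mice. All db/db values lay below all db/m values, and the relative log2 fold change was -0.58 (edgeR quasi-likelihood adjusted p = 0.099). With 1 animal left out it ranged from -0.67 without db/m animal 4 (adjusted p = 0.029) to -0.36 without db/m animal 2 (adjusted p = 0.84), and the adjusted p was also under 0.05 without db/m animal 1 (0.045). In DESeq2 the adjusted p was 0.83 and in limma 0.63. A peak on the opposite strand leaves the gene uncertain.

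mt-Nd2, a subunit of respiratory complex I, had the only shared short peak on the mitochondrial chromosome, 67 bases from 4950 to 5016. Its log2 IP over RNA-seq level was 1.04 to 1.95 in db/db mice and 1.35, 3.51, 2.13, 1.66 and 1.47 in db/m mice. The groups overlapped, and db/m animal 2 lay far above the rest. The relative log2 fold change of -0.55 (edgeR quasi-likelihood adjusted p = 0.099) was -0.22 without this animal (adjusted p = 0.89) and -0.72 without db/m animal 1 (adjusted p = 0.0029). The adjusted p was also under 0.05 without db/db animal 6 (0.014), db/m animal 5 (0.018) or db/m animal 4 (0.029). In limma the adjusted p was 0.74, and the call of mt-Nd2 in IP reads was lost without db/m animal 2 or 3.

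Rgp1, which encodes part of an exchange factor for the Golgi GTPase Rab6, had one shared short peak that stood higher and one that did not. At the peak on chromosome 4 from 43586889 to 43587158, the log2 IP over RNA-seq level was 0.10 to 1.01 in db/db mice with a median of 0.61, and -0.70, 0.05, -0.05, -0.56 and 0.22 in db/m mice. Only the lowest db/db mouse lay within the db/m range, and the relative log2 fold change was 0.82 (edgeR quasi-likelihood adjusted p = 0.15). At the peak that starts at 43586291 it was -0.35. Neither passed the test, and the difference between the peaks was not tested. The 5′-most Timp3 peak (0.30) and that of Acsm2 (0.21) did not pass either (adjusted p = 0.25 in both). With 1 animal left out, their adjusted p was lowest at 0.030 for Timp3 without db/m animal 1 and at 0.048 for Acsm2 without db/m animal 4.

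**Figure D4:**
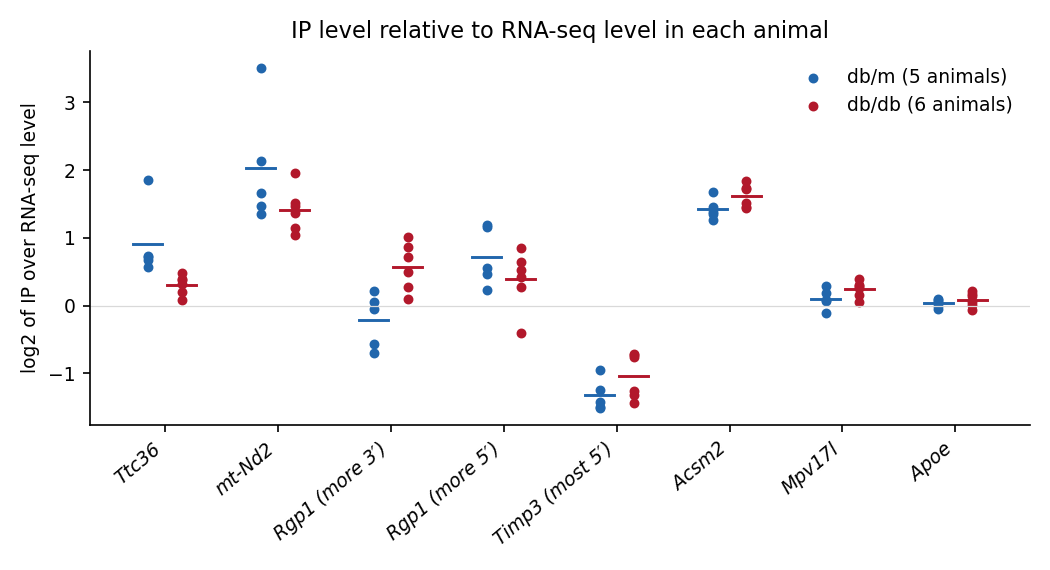
log2 of IP over RNA-seq level in each animal, with 0.5 CPM added to both, for the 5 peaks with the smallest relative p, the other Rgp1 peak, Mpv17l and Apoe. Points are animals and bars are group means. In Ttc36 and mt-Nd2 one db/m mouse lies highest, at 1.85 and 3.51, and in Mpv17l and Apoe, both called in IP reads, the genotypes overlap.

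Genes with more than one shared short peak were compared within the gene, after overlapping peaks were reduced to 1. There were 220 such genes with 488 peaks, and the log2 fold changes in IP reads lay a median of 0.25 apart, and over 1 apart in 13 genes. In 9 of the 13, at least 1 of the peaks had under 10 IP reads on average. In 4 genes at least 2 peaks were called, in the same direction in each: Mlec and Trabd2b lower, Gpd1 and Micall1 higher. In 7 genes 1 peak was called, as in Tsc22d4, whose peaks stood at 0.14 and 1.18.

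Mlec encodes malectin, a lectin of the endoplasmic reticulum. Its peak at the gene start had 10.5 to 31.0 CPM of IP reads in db/db mice and 23.0, 125, 44.4, 34.3 and 51.2 CPM in db/m mice. Its log2 fold change was -1.40, and was -0.86 and no longer called without db/m animal 2. The call was also lost without db/m animal 5 and without each of db/db animals 1, 2 and 5. The Mlec peaks that start at 115145315 and 115143430 stood at -1.07 and -0.80, without overlap of the groups. The call of the former was lost without TMM, where it stood at -0.98. Trabd2b, which encodes a protease that acts on Wnt proteins, had log2 fold changes of -2.07 and -1.33, and at the latter db/db animal 6 (65.4 CPM) lay within the db/m range. The peaks of Ldb1, which encodes a cofactor of LIM proteins, stood at 1.13 and -0.90, and neither passed the test.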

How the data were processed

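The authors filtered the reads and aligned them to the mouse genome (GRCm38 in the submitters' processing notes), called peaks in each genotype and deposited 1 table. The deposited counts are whole reads per peak in each library, as the authors counted them and not normalized. In 46 of 52 pairs of peaks on opposite strands that overlap by at least 90%, the totals were within 10%, so reads of the strands were hardly separated. The authors' deposited fold enrichment is a linear ratio of IP over input, and the FDR (an adjusted p-value) is that of their peak call. Their own log2 change and p-values between genotypes were not used. Aligner, peak caller and counter are not given in the sources used here. Starts are printed with 1 added, which matched 22 gene boundaries, against 3 as given. The table has 0 per-sample columns that were left out.

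IP and RNA-seq counts were fitted separately in edgeR 4.0.16 (quasi-likelihood, TMM, R 4.3.3), and the relative change over the 22 libraries with animal as a block. A count of 0 allows 3 reads, 0.291 to 0.396 CPM in IP and 0.895 to 0.952 CPM in RNA-seq libraries, for counting error only. In simulated counts with 200 of 9857 peaks changed by a log2 of 2, the IP fit recovered 168 with 7 false calls. The RNA-seq fit recovered 152 with 0 and the relative fit 153 with 0. Recovery at a smaller log2, such as the median absolute 1.24 of the called IP peaks, was not tested. False calls in peaks whose animals vary widely were not tested either. Alternatives were DESeq2 1.42.0, limma 3.58.1, no TMM, a count filter, 1 peak per overlapping group, other overlap and length limits, the db/m row, each animal left out and a replicate block.

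Named were, with each gene represented only by its peak of highest mean IP level, the 6 highest IP levels, the 10 largest rises and falls among called peaks without overlap, up to 4 per gene list, and the 2 longest and 2 smallest overlaps. Other genes were named after their values were seen. Members and lists were chosen with earlier results of these data known.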

Additional observations from a re-analysis of the deposited data

Results flagged for a closer look

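Groups of 5 or 6 animals were searched for a single value far from the rest, and 7 of 96 groups held one. Chance flags about 1 in 20 groups. db/m animal 2 was the lowest db/m mouse in RNA-seq reads of Acsm2 (2048 CPM) and Ugt1a6b (164 CPM), and the highest in IP reads of Cmtm6 (367 CPM) and RNA-seq reads of Evc (258 CPM). db/db animal 6 was the highest db/db mouse in RNA-seq reads of Acy3 (141 CPM), and db/m animal 5 the highest db/m mouse in IP reads of Hsd17b11 (16.8 CPM). The RNA-seq value of Grem1 in db/m animal 3 (0.327 CPM) is 1 read, where the other db/m mice had none.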

How the results depend on the processing

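The 64 shared short peaks called in IP reads became 74 with DESeq2, 65 with a count filter and 64 without TMM, and 50 to 79 with 1 animal left out. The 69 called in RNA-seq reads became 62 to 86 with 1 animal left out, highest without db/db animal 6. Without the fold threshold there were 124 in IP and 217 in RNA-seq reads. Without TMM, 43 of the 64 IP calls were higher in db/db mice, against 36 of 64. The relative comparison gave 0 calls under each alternative run, leaving out each animal included. Same-numbered animals of the genotypes had correlations of -0.23 to 0.17 in IP and -0.33 to 0.45 in RNA-seq reads, over 0.1 in 2 of 5 pairs. With 5 pairs this cannot decide whether the numbers pair the animals, and it was not tested. With the replicate block 85 peaks were called in IP reads, 61 of them among the 64, and 86 in RNA-seq reads.

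The median log2 IP over RNA-seq level of 0.32 in db/db and 0.29 in db/m mice was 0.24 and 0.24 with 2 CPM added, 0.34 and 0.32 for peaks that share at least 50% of both rows, and 0.36 and 0.34 for peaks up to 500 bases. Signs turned only in named peaks that had not passed the test. In IP reads, Hao2 stood at -0.17 and Plekho1 at -0.22 with the replicate block, and Atp5b at 0.0165 without TMM. With 1 animal left out, Hao2 ranged from -0.10 to 0.37, Ubtf from -0.0133 to 0.10, Eif3a from -0.37 to 0.17 and Lgr4 from -1.04 to 0.30. The causes were not tested. Depth limits peaks of few reads: none of the 196 with a mean under 10 IP reads was called, and the fewest mean reads of a called peak were 59.2.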
